A study of Rattus norvegicus with 16 samples.

Results

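Hearts of rats given a higher dose of streptozotocin, 100 mg/kg (D100, n = 6), were compared with hearts of rats given a lower dose, 55 mg/kg (D55, n = 6). These 12 libraries were chosen by their titles, D100A to D100F and D55A to D55F, out of 16 in the series. The other 4 came from untreated rats (Control) and entered the fit only to share in the estimate of the spread between animals. All animals were adult male Wistar rats, and both dosed groups received the agent once, by tail vein. Blood glucose above 13 mmol/L was required 24 hours later, and hearts were collected after 4 days. The labels give no glucose value per animal, so severity here means the injected dose. Each library is RNA from 1 rat, and the letters A to F name animals without pairing them.

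Streptozotocin enters the beta cells of the pancreas through a glucose transporter and damages their DNA, so that insulin falls and blood glucose rises. A larger dose leaves fewer working beta cells. In the heart, loss of insulin is known to slow glucose uptake and to raise the use of fatty acids and ketone bodies, much of it through transcription factors that sense lipids. The question set by the title of the study is how far the cardiac transcriptome follows the severity of this state.

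Genes are named in the files by Ensembl identifiers alone, and 0 of the 23918 identifiers could be paired with a symbol from the reference table used here. Pathways, cell types and the labelled tissue could not be checked against marker genes for that reason. The results therefore describe groups of genes by abundance, direction and behaviour across libraries, and give 2 identifiers in each direction. In a bulk heart library, fewer cells of a type and less RNA per cell cannot be told apart.

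D100 hearts had more of their messenger RNA in a few very abundant transcripts than D55 hearts. The 10 most abundant genes of the series took 53.4 to 69.0% of the counts in D100 and 30.1 to 54.7% in D55, a difference of 17.2 percentage points (exact two-sided permutation p = 0.00649, 0.0162 after adjustment over 9 measures per library). The single most abundant gene alone took 22.1% ± 1.78 (SD, n = 6) of counts in D100 and 15.8% ± 4.01 (SD, n = 6) in D55 (exact permutation p = 0.00433, adjusted 0.0162). In D100, 1989 ± 528 genes (SD, n = 6) were enough to make up 90% of the counts, against 3288 ± 777 (SD, n = 6) in D55 (exact permutation p = 0.0108, adjusted 0.0162). Fewer genes were also detected at equal depth. When every library was scaled down to the lowest total of 4.685 M counts, 13957 ± 513 genes (SD, n = 6) were expected in D100 and 14938 ± 502 (SD, n = 6) in D55 (exact permutation p = 0.00866, adjusted 0.0162).

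D55 replicates B and E stood apart from the other D55 libraries, with 30.1 and 30.4% of counts in the 10 most abundant genes and 101 and 105 genes making up 50% of the counts. The other 4 D55 libraries needed 8 to 30 genes and the D100 libraries 5 to 8. Without B and E the top 10 genes took 10.6 points more in D100 than in D55 (exact permutation p = 0.0286, adjusted 0.0714), and none of the 9 measures kept an adjusted p under 0.05. The difference in genes detected at equal depth was then -665 (exact permutation p = 0.0381, adjusted 0.0714). Depth also moved with dose: totals were 4.685 to 25.58 M in D100 and 18.50 to 48.40 M in D55 (exact permutation p = 0.039, adjusted 0.0438), and its part in the gene results was examined only by scaling down the counts. Leaving out 1 dosed library moved this p to between 0.013 and 0.0779, and it was over 0.05 in 10 of 12 cases.

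**Figure D1:**
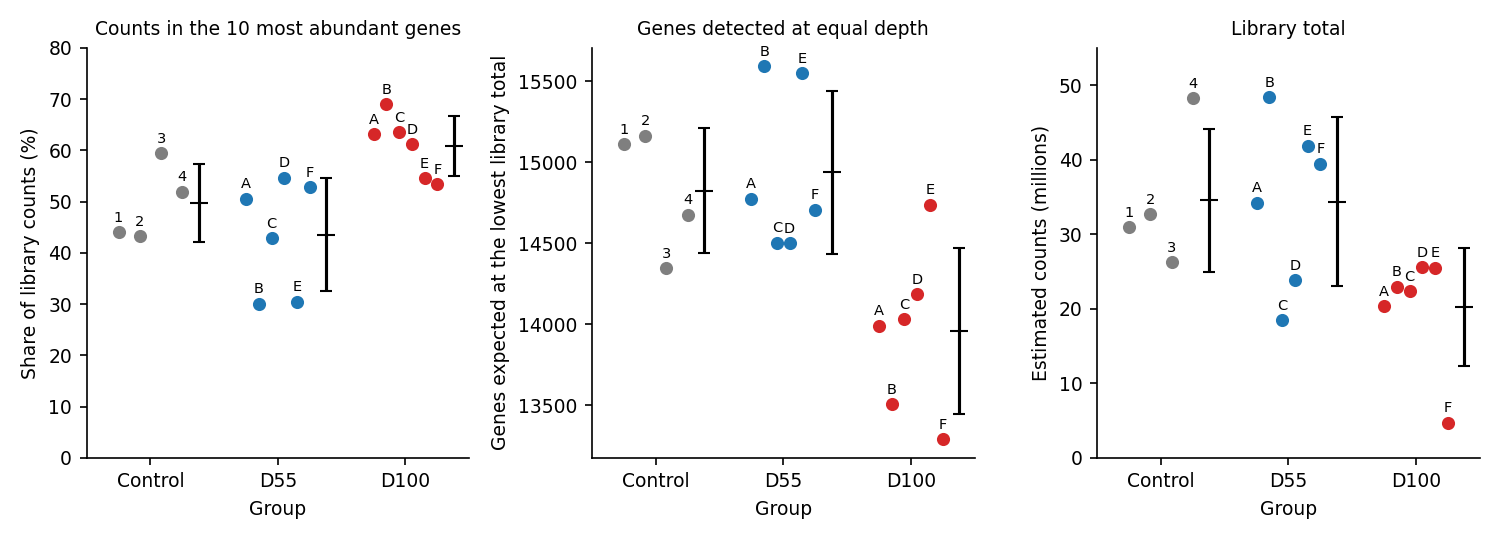
Percentage of counts in the top 10 genes, genes expected at the lowest library total, and library total (M estimated counts), 1 point per library labelled by replicate, with mean and SD bars beside each group. D55 B and E have the lowest shares, 30.1 and 30.4%, and D100 F the lowest total, 4.685 M.

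With all 16 libraries in the fit, 5041 of 14175 genes differed between the doses (edgeR quasi-likelihood test, Benjamini-Hochberg adjusted p under 0.05), 35.6% of those tested. Of these, 1944 (13.7%) were higher and 3097 (21.8%) lower in D100. Most of these calls were lost without D55 B and E and in the fit with composition as a covariate. Without D55 B and E, 123 of 13854 genes differed (0.888%), 64 higher (0.462%) and 59 lower (0.426%). When the composition of each library (the percentage of counts in its top 10 genes) entered the model as a covariate, 41 of 14175 differed (0.289%), 19 higher (0.134%) and 22 lower (0.155%). Leaving out B and E also cuts D55 to 4 libraries and leaves a difference in composition of 10.6 points, so fewer animals, the loss of 2 distant ones and composition cannot be told apart in that fit. The covariate itself differs between the doses, so the covariate and the dose are partly confounded in that fit. Without scaling factors the split of calls was 141 higher and 6875 lower, with the median log2 fold change of all genes at -0.65 in place of -0.03.

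Fold changes in the fit of all libraries differed by abundance class. Genes under 1 CPM (counts scaled to a common library total) had a median log2 fold change of -0.40, and those of 1 to 10 CPM one of -0.33. The median was 0.18 for genes of 10 to 100 CPM, 0.37 for those of 100 to 1000 CPM and 0.48 for the 41 genes over 1000 CPM. In the fit that left out D55 B and E, the 5 classes had medians of -0.16, -0.16, 0.09, 0.18 and 0.34. With the covariate they lay between -0.11 and 0.05. Without scaling factors all 5 were below 0, at -1.05, -0.96, -0.44, -0.23 and -0.10, so the direction of the 3 upper classes depends on the scaling, while the order of the classes was the same. The 10 most abundant genes were a case of this pattern: 8 of 10 were called higher in D100 with all libraries, 0 of 10 by edgeR without D55 B and E (8 at an unadjusted p under 0.05), and 0 of 10 by edgeR with the covariate (0 unadjusted). Their median log2 fold change was 1.09, 0.79 and 0.03 in these 3 fits, and 0.48 without scaling factors, where 5 were called.

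**Figure D2:**
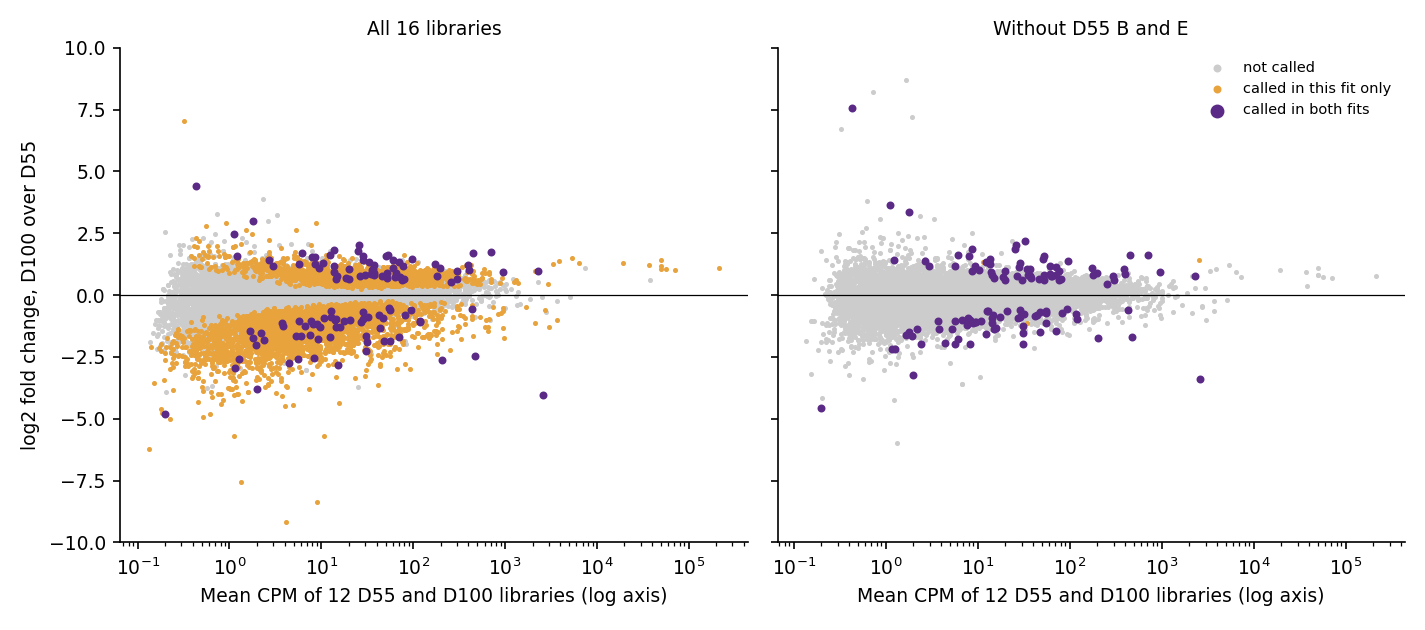
Log2 fold change of D100 over D55 against mean CPM of the 12 D55 and D100 libraries (log axis), 1 point per gene, with all 16 libraries (left) and without D55 B and E (right). Grey genes were not called, orange genes were called in that fit only and the 120 purple genes were called in both; the left cloud tilts from lower in D100 at low abundance to higher at high abundance under TMM scaling, and without scaling factors all class medians are below 0.

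A group of 120 genes passed the threshold in the same direction both with all libraries and without D55 B and E, 0.866% of the 13854 genes tested in both fits. Of these, 62 were higher and 58 lower in D100. For the higher genes the median fold change was 2.19 with all libraries and 2.0 without B and E, and for the lower genes 2.46 and 2.17. At least a 2-fold change was seen for 81 of the 120 with all libraries and for 68 without B and E. CPM values of the 6 D100 and 6 D55 libraries did not overlap for 103 of the 120, against 4.2% of all genes tested; the 120 were chosen on these values, so this describes them and tests nothing. With the covariate all 120 kept their sign, and 25 of them passed the threshold, 14 higher and 11 lower. Without scaling factors 119 kept their sign, and 33 of the 62 higher and 58 of the 58 lower genes were called in the same direction. The median log2 fold change was then 0.49 in place of 1.13 for the higher genes and -1.99 in place of -1.30 for the lower genes. Among all 5041 genes, 141 of 1944 higher and 3097 of 3097 lower were called in the same direction without scaling factors. The full count of lower genes is therefore not particular to the 58. Leaving out each of the 16 libraries in turn, 117 of the 120 were called every time. The same held for 1152 of all 14175 genes tested and for 1035 of the 4921 other genes called with all libraries. Passing without D55 B and E was already a condition for the 120, so their count describes them and tests nothing. The calls rested on the controls in the fit as well: with the dosed libraries alone and without D55 B and E, 119 of the 120 were tested, all 119 had the same sign, and 22 passed the threshold.

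The 120 genes were of medium abundance. The higher ones had a median of 36.2 CPM over the 12 libraries and the lower ones 14.2 CPM, beside 8.60 CPM for all genes tested. Only 1 higher and 1 lower gene lay over 1000 CPM, and none was among the 10 most abundant. Estimated counts were whole numbers in fewer than 50% of the libraries for 31 of the 120 genes (25.8%), against 23.6% of all genes tested, so reads shared with similar sequences were about as common in them as elsewhere.

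Each library's level of these genes was read as the median log2 CPM relative to the mean of D55 A, C, D and F. For the 62 higher genes the D100 libraries lay at 0.83 to 1.23 and the D55 libraries at -0.59 to 0.12. Controls, which took no part in the contrast, lay at -0.37 to -0.12. For the 58 lower genes the D100 libraries lay at -1.38 to -0.94, D55 at -0.12 to 0.64 and Control at -0.11 to 0.41. In either set the 6 D100 libraries were apart from all 10 others, while D55 and Control overlapped. The genes were chosen on these D55 and D100 values, so the separation of the doses describes them and tests nothing. D55 B had the lowest D55 level of the higher genes, -0.59, and the highest of the lower genes, 0.64.

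The other 4921 genes called with all libraries, which were not called or not tested without B and E, were spread differently. For their 3039 members lower in D100, D55 B and E lay at 1.38 and 1.33 and D55 C at 0.49, while D55 A, D and F lay at -0.30 to -0.03. D100 A, B, C and D lay at -1.26 to -0.73, but D100 E and F at -0.04 and -0.25, inside the range of the D55 libraries. The controls had a range of -0.51 to 0.35, with Control 3 lowest. Among controls, Control 3 also gave the most counts to the top 10 genes, 59.4% against 43.3 to 51.9%. For the 1882 members higher in D100 the order of libraries was turned around, with D55 B and E at -0.82 and -0.79, and D100 E and F at 0.05 and 0.21.

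**Figure D3:**
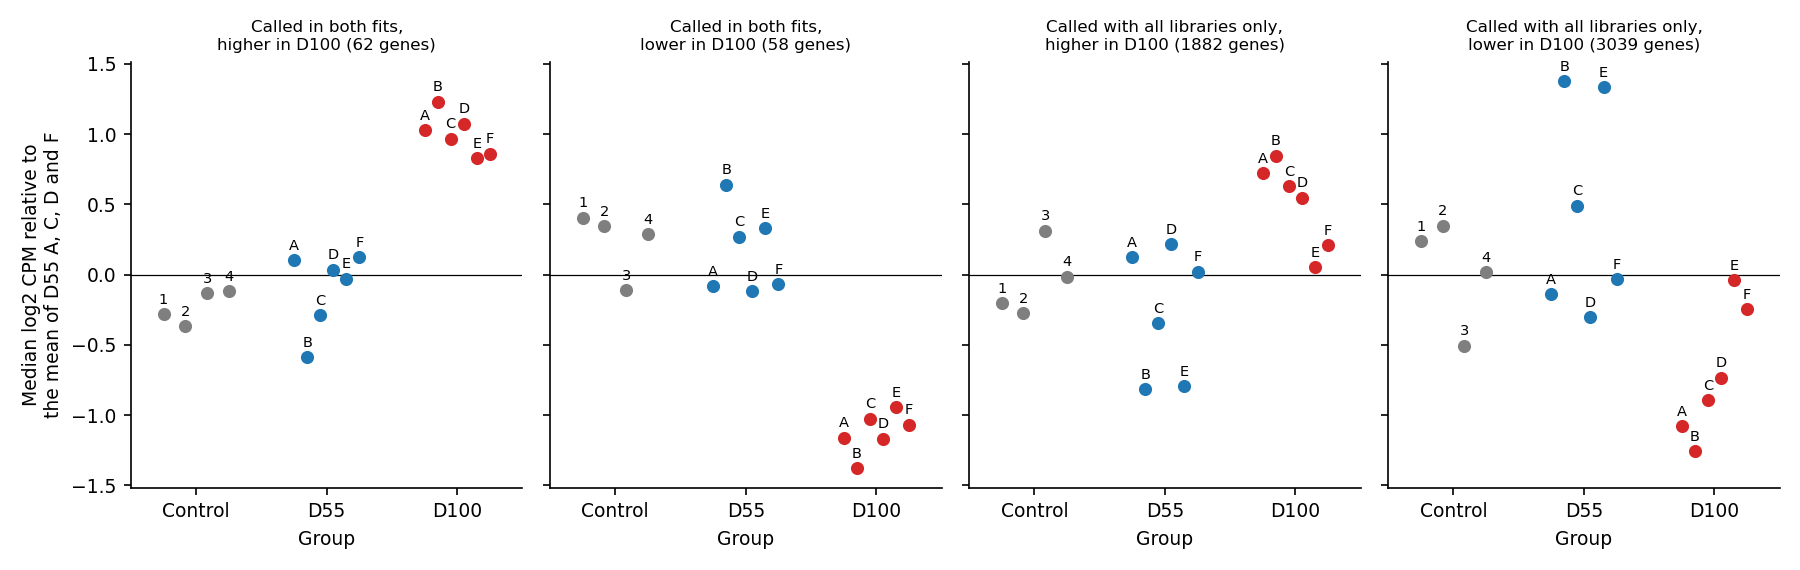
Median log2 CPM of 4 gene sets in each library, relative to the mean of D55 A, C, D and F; 1 point per library, labelled by replicate, with Control in grey, D55 in blue and D100 in red. All 6 D100 libraries are apart from the rest in the 2 left panels (62 and 58 genes), while in the 2 right panels (1882 and 3039 genes) D100 E and F lie among the D55 libraries. The sets were chosen on the D55 and D100 values shown, so the panels describe them and test nothing.

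The doses could also be compared among libraries of like composition. A set of 6 libraries had 50 to 55% of their counts in the 10 most abundant genes: D55 A, D and F, D100 E and F, and Control 4. Fitted alone, with 3 D55 against 2 D100 libraries, they gave 34 called genes of 14604 (0.233%), 12 higher (0.0822%) and 22 lower (0.151%) in D100, and 20 of these were among the 5041. In this fit the 62 higher genes had a median log2 fold change of 0.76 and the 58 lower genes one of -0.80, and the sign was kept in all 120. Of the 4921 other genes, 4896 were tested here, and 48.6% of those kept their sign. Among all 5041 the 1944 higher genes had a median of 0.02 and the 3097 lower genes one of 0.02. These 5 dosed libraries also served to choose the genes, so the values are a description. D100 F, 1 of the 2 D100 libraries here, had the lowest total of all, 4.685 M counts. The single control in the fit is fitted by its own coefficient and adds nothing to the spread. As the smallest group it does set how many libraries the count filter asks for. More genes were therefore tested here than with all 16 libraries (14175).

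Between the fits with and without D55 B and E the size of the differences changed more than their sign. Of the 5041 genes, 4966 were tested without B and E, and 4965 kept their sign. The log2 fold change was smaller in the direction first called for 4831 of the 4966. For the 3023 lower genes among them the median went from -1.31 to -0.68, and for the 1943 higher genes from 0.76 to 0.52. Over all genes the absolute log2 fold change was smaller without B and E for 11595 of the 13854 tested in both fits. Both fits share most of their libraries, and the 5041 genes were chosen in the first. Their kept sign and smaller size therefore describe them and test nothing.

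Libraries of the same dose lay nearly as far from each other as libraries of different doses. A distance between doses also holds the difference between animals, so it does not measure the dose alone. The distance between 2 libraries was taken as the root mean square difference of log2 CPM over the 14175 genes. Its median was 1.03 over the 15 pairs within D55, 0.97 over the 15 pairs within D100 and 1.18 over the 36 pairs between doses. Without D55 B and E it was 0.76 within D55 and 0.93 between doses. D55 B and E were the closest pair of D55 libraries, at 0.44, and lay a median of 1.23 from the other D55 libraries. The median SD of a gene's log2 CPM was 0.50 in D55, 0.31 in D55 without B and E, and 0.49 in D100. D100 F, the shallowest library, added to the last value, which was 0.39 without it.

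A first principal component of the 12 dosed libraries held 55.6% of the variance and ran with the counts taken by the top 10 genes (r = 0.98 over 12 libraries; the component and the share come from the same counts, so no p is given). Scores on it differed between the doses, with an exact permutation p of 0.0216 (adjusted 0.0325 over 3 components). Scores on the second component, with 20.6% of the variance, also differed (exact permutation p = 0.00866, adjusted 0.026). This component had an r of 0.08 with the percentage of counts in the top 10 genes. Its mean score was 15.99 (SD 64.78, n = 6) in D100 and -15.99 (SD 3.61, n = 6) in D55. The spread within D100 was thus larger than the distance between the means, so the 20.6% does not measure the difference between the doses. The largest distance between 2 D100 libraries over the genes tested was 1.71, and 1.21 without D100 F, the shallowest library. The components were not computed without D100 F, so its part in this difference is not known. What set the spread on the second component was not tested. After D55 B and E were left out, the leading component held 42.8% and the doses were not told apart on it by the same exact permutation test (p = 0.4). The next one, with 27.98%, gave an exact permutation p of 0.0286 (adjusted 0.0857).

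Single genes were taken from 90 that passed in both fits, had at least 5 CPM on average and did not overlap between the doses, 46 higher and 44 lower. The 2 with the largest rise and the 2 with the largest fall are described. What these genes encode is not given in the sources used here.

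ENSRNOG00000034228.5 had the largest rise. Its lowest, median and highest values were 2.81, 10.5 and 17.8 CPM in D55 and 27.7, 41.6 and 50.9 CPM in D100. Every D100 library was above every D55 library, and every D55 library was above the 4 controls, which lay at 1.40, 1.40, 1.93 and 2.05 CPM. Between the doses the log2 fold change was 2.01 (SE 0.31; adjusted p = 0.00545 in edgeR). It was 2.01 (SE 0.20, adjusted p = 0.000511) without D55 B and E and 2.04 (SE 0.21, adjusted p = 0.0118) among libraries of like composition. With the covariate the log2 fold change was 1.91 and the edgeR adjusted p 0.0504. D55 B, at 2.81 CPM, was the D55 library nearest to the controls, and D55 E, at 17.8 CPM, was the highest, so these 2 libraries, with nearly the same share of counts in the top 10 genes, had the most different levels of this gene in D55.

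ENSRNOG00000037645.4 had the next largest rise, from a mean of 5.96 CPM ± 4.18 (SD, n = 6) in D55 to 21.2 ± 4.93 (SD, n = 6) in D100. The lowest, median and highest values were 2.26, 4.32 and 13.3 CPM in D55 and 15.5, 21.3 and 28.5 CPM in D100. D55 F was the highest D55 library and lay just under the lowest D100 library. Controls, at 3.98 to 7.38 CPM, lay inside the D55 range. Its log2 fold change was 1.83 (SE 0.36; adjusted p = 0.0119 in edgeR), and 1.46 (SE 0.32, adjusted p = 0.0441) without D55 B and E. The call was lost with the covariate (log2 fold change 1.19, adjusted p = 0.205) and among libraries of like composition (1.28, adjusted p = 0.214).

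ENSRNOG00000025757.2 had the largest fall. It was an abundant transcript in D55, with a lowest, median and highest value of 2298, 3927 and 11161 CPM, and stood at 118, 252 and 734 CPM in D100. No D100 library reached the lowest D55 or control library, and controls lay at 2186 to 5394 CPM, within the D55 range. Between the doses it fell by 4.03 on the log2 scale (SE 0.52, adjusted p = 0.00208 in edgeR). It was -3.37 (SE 0.45, adjusted p = 0.00442) without D55 B and E, and -2.46 (SE 0.31, adjusted p = 0.002) with the covariate. Among libraries of like composition it was -2.41 with an adjusted p of 0.0644. Without scaling factors it was -4.65. Estimated counts of this gene were whole in 1 of the 6 libraries where this could be judged, so reads were divided between it and similar sequences and its level is less sure.

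ENSRNOG00000010872.5 fell from 26.6 CPM ± 30.0 (SD, n = 6) in D55 to 3.77 ± 0.89 (SD, n = 6) in D100. In D55 the lowest, median and highest values were 6.57, 12.5 and 82.9 CPM, and in D100 2.47, 3.84 and 4.75 CPM. D55 B and E held the 2 highest values, 82.9 and 37.7 CPM, and D55 C the next, 16.2 CPM. Controls lay at 11.1 to 24.1 CPM. Its log2 fold change of -2.83 (SE 0.57; adjusted p = 0.012 in edgeR) was -1.37 (SE 0.28, adjusted p = 0.0342) without D55 B and E. It was -0.69 (adjusted p = 0.239) among libraries of like composition and -0.36 (adjusted p = 0.708) with the covariate. Of the 4 genes described, this one moved most with the composition of the libraries.

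**Figure D4:**
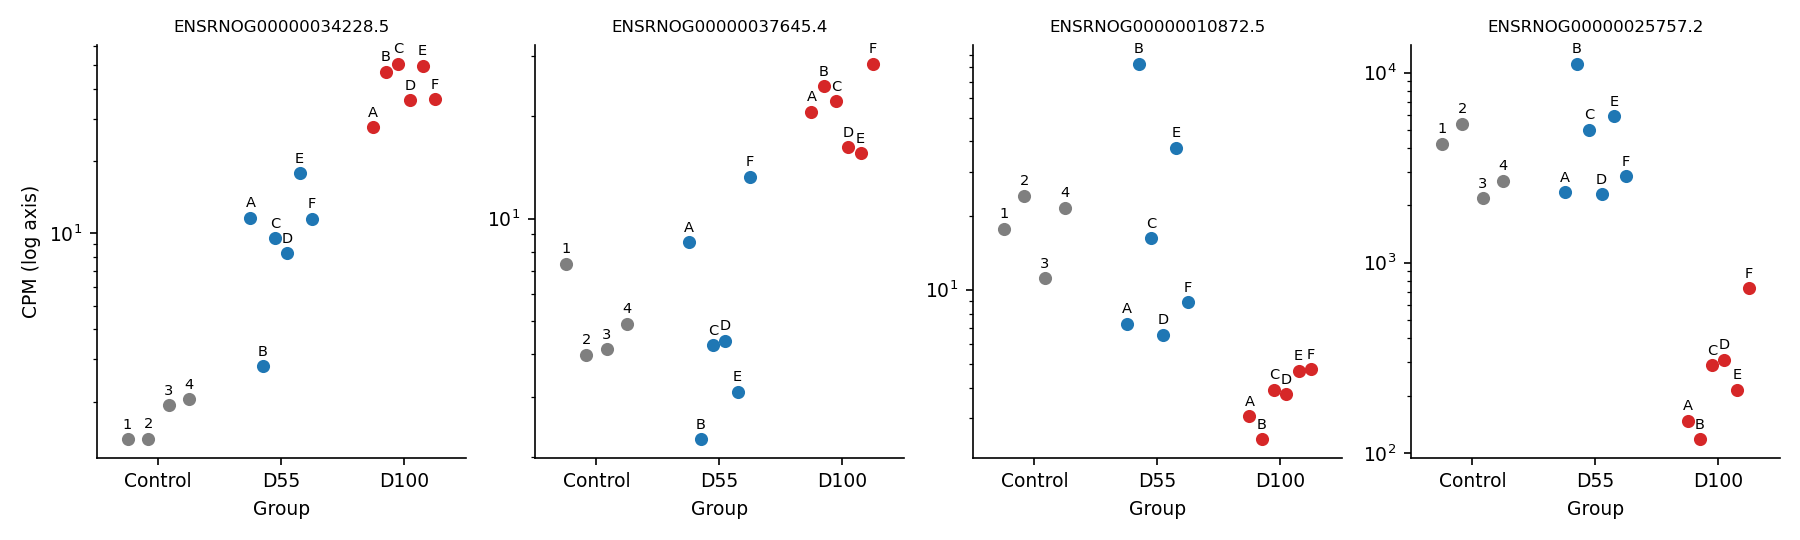
CPM of the 2 genes with the largest rise and the 2 with the largest fall in each library (log axes), 1 point per library labelled by replicate, Control in grey, D55 in blue and D100 in red. D55 and D100 do not overlap in any panel, and in the third panel D55 B and E, at 82.9 and 37.7 CPM, lie above all other libraries.

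The fit of all 16 libraries also gives each dose against Control, and the values are set side by side here; the comparisons share their libraries, so they are not independent. Of all 14175 genes, 4.38% were called in D100 against Control and 0.0635% in D55 against Control. Neither comparison was repeated with the composition covariate or without D55 B and E. The top 10 genes took a mean of 60.8% of counts in D100, 49.7% in Control and 43.6% in D55, so composition and dose cannot be told apart in these percentages. For the 62 higher genes the median log2 fold change was 1.18 in D100 against Control and 0.08 in D55 against Control. For the 58 lower genes it was -1.35 and -0.00. Over all genes tested the medians were -0.03 and 0.03. ENSRNOG00000034228.5 changed against Control by 4.61 in D100 (edgeR adjusted p = 4.26e-05) and by 2.60 in D55 (adjusted p = 0.0231). For ENSRNOG00000037645.4 these values were 2.05 (adjusted p = 0.0126) and 0.22 (adjusted p = 0.842). For ENSRNOG00000025757.2 they were -3.59 (adjusted p = 0.00127) and 0.44 (adjusted p = 0.749), and for ENSRNOG00000010872.5 -2.31 (adjusted p = 0.037) and 0.52 (adjusted p = 0.737).

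The number of genes called between the doses ranged over the settings tried. It was 5322 with the size factors of DESeq2, 6600 with the test of DESeq2 and 7068 with limma-voom, all with the 16 libraries. The limma-voom fit used a quality weight per library, which gives less weight to deviating libraries. Scaling all libraries down to 4.685 M counts left 3413 called genes of 11581, and 84 of 11168 when D55 B and E were also left out. Each single library of D55 B (1172 called without it), D55 E (1403), D100 A (1965), D100 B (1721), D100 C (2173) and D100 D (2723) changed the count by more than 1.5 times.

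**Figure D5:**
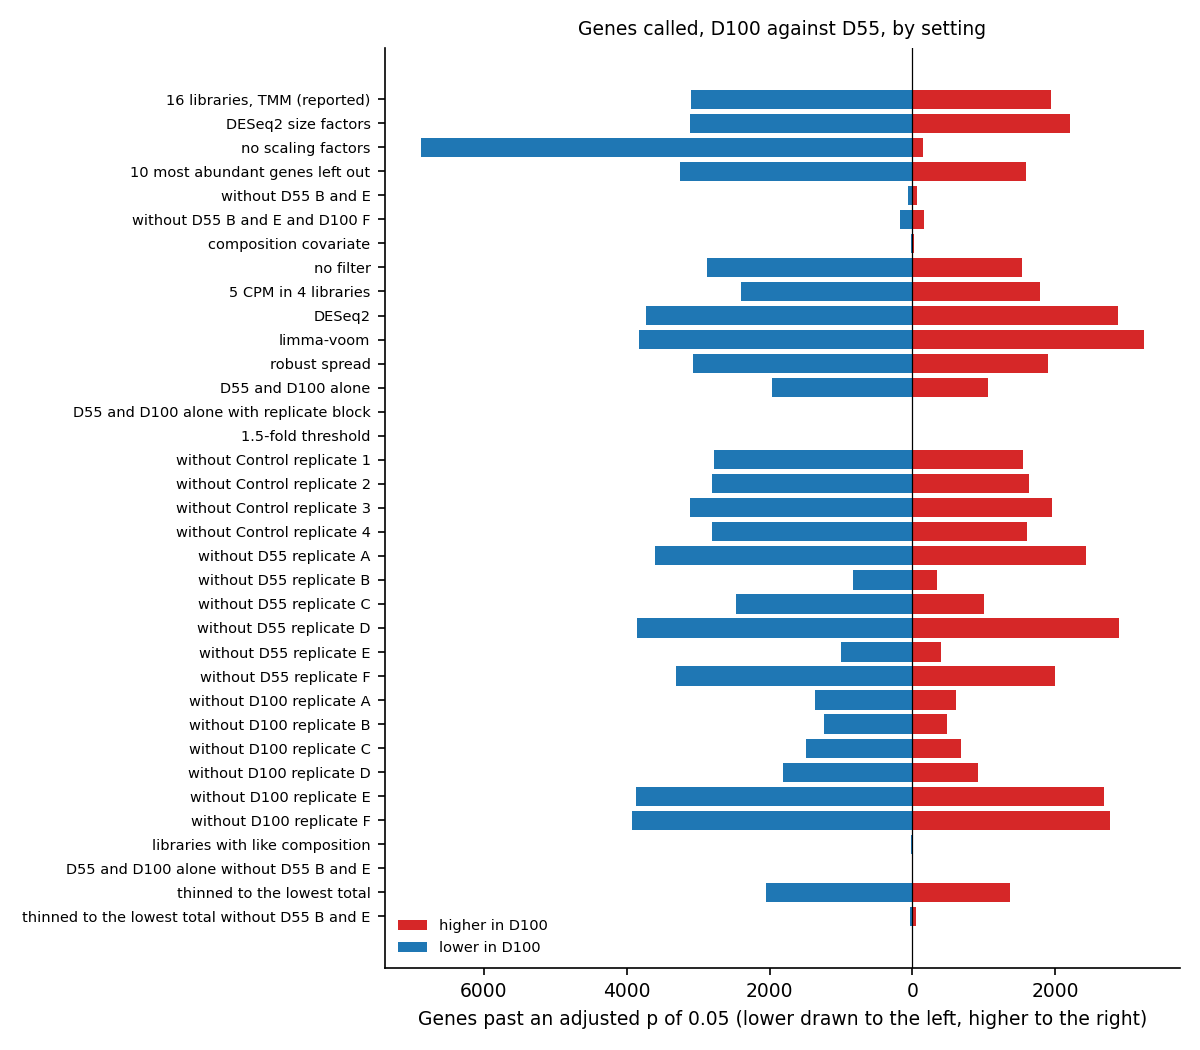
Number of genes with an adjusted p under 0.05 between D100 and D55 under each setting, those lower in D100 drawn to the left and those higher to the right. The bars shrink to 123 genes without D55 B and E and to 41 with the composition covariate, while without scaling factors 6875 of 7016 lie on the lower side.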

How the data were processed

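The authors deposited 1 table of estimated counts per library. The submitters' processing notes name kallisto 0.43.1 and the genome build Rnor_6.0; annotation release and strand setting are not given in the sources. Libraries were poly(A)-selected and stranded, per the labels' protocols. Estimated counts were rounded. Of the estimates in a dosed library, 16.1 to 26.0% were not whole within 0.01, judged for those rounding to at least 1 and under 10000. Library totals of 4.685 to 48.40 M put 3 counts at 0.0620 to 0.640 CPM.

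The test was that of edgeR 4.0.16 in R 4.3.3: filterByExpr with the 3 groups (14175 of 23918 genes kept), TMM factors, and glmQLFit and glmQLFTest with 1 coefficient per group over 16 libraries, adjusted by Benjamini-Hochberg at 0.05. The SE is the log2 fold change divided by the square root of F. CPM uses TMM-scaled totals, and log2 CPM a prior count of 2. The rule for single genes asked for a call in both fits, at least 5 CPM and no overlap, then took the largest changes. It also asked for a symbol, which could not be had, so 2 identifiers in each direction are given, as the rule provides. The 47 gene lists could not be used: the reference table (RefSeq, GRCr8, 47357 rows) holds 0 Ensembl identifiers. The genes, lists and settings were chosen with earlier results of these data known. DESeq2 1.42.0 and limma 3.58.1 (voom with a quality weight per library) were alternatives. Within-group pairs had a chi-square per degree of freedom of at least 12.0 (genes with 10 or more counts), so none was treated as a duplicate. P-values set a difference between groups against the spread between libraries. Each library is 1 animal, so differences between animals and between libraries are not separated.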

Additional observations from a re-analysis of the deposited data

Results flagged for a closer look

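Over the 30 sets of 6 libraries examined, 3 held a library far from the other 5, where chance gives about 1 in 20, and all 3 were D100 F. It had the lowest total of D100, 4.685 M counts, and the fewest genes with a count, 13290 (15253 to 16397 in the other D100 libraries). It also had the highest D100 level of ENSRNOG00000025757.2, 734 CPM against 118 to 309 CPM. Without D100 F the log2 fold change of this gene was -4.52 in place of -4.03, and 6683 genes were called between the doses in place of 5041.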

How the results depend on the processing

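The count of 5041 genes moved by more than 1.5 times in 15 of 34 alternatives. It was 123 without D55 B and E, 342 without these and D100 F, 41 with the composition covariate, 3018 with the dosed libraries alone and 5 with a 1.5-fold threshold; added after seeing the data were 34 genes among libraries of like composition, 23 with the dosed libraries alone without D55 B and E, and 84 with counts scaled down and without both. Leaving out 1 library gave 1172 to 6745 genes, and without scaling factors 2.01% of calls were higher in place of 38.6%. With the dosed libraries alone, adding the replicate letter as a block (replicate block) took edgeR from 3018 genes (6244 at an unadjusted p under 0.05) to 0 (5916 unadjusted). Letters do not pair animals: libraries of the same letter had correlations of -0.50 to 0.63, and 1 of 6 D55 libraries correlated best with its own letter. For the 4 genes described no alternative turned the direction; the calls held in 31, 28, 28 and 32 of 34 alternatives in the order ENSRNOG00000034228.5, ENSRNOG00000037645.4, ENSRNOG00000010872.5 and ENSRNOG00000025757.2. The difference in library totals was -8.78 M without D55 B and E (exact permutation p = 0.171) and -17.3 to -11.1 M without 1 library (exact permutation p = 0.013 to 0.0779, over 0.05 in 10 of 12 cases). The difference in the share of the 10 most abundant genes passed in all 14 alternatives before adjustment, at 14.6 to 19.5 points without 1 library. The causes were not tested.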
